A study of Mus musculus with 2 samples.

Results

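Among the mouse embryonic stem cells grown in LBPXRS medium, 168 cell barcodes held almost no RNA from the mitochondrial genome. They were selected on measured values, namely at least 1000 detected genes and less than 0.5% of unique molecular identifiers (UMIs, each standing for 1 captured RNA molecule) from the 13 genes whose symbols begin with mt-. These 168 were part of 3111 LBPXRS barcodes and of 5119 barcodes in the series. They were compared with the 2537 LBPXRS barcodes that had at least 1000 genes and a mitochondrial share of 0.5 to 10%, called comparison cells here; a further 65 barcodes lay above 10%. Both groups thus come from 1 culture and 1 library, so cells are not replicates and no p-value is given. Intervals are exact 95% intervals that cover counting error only.

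The series holds 2 libraries of the R1 embryonic stem cell line, 1 per condition, each taken after 72 hours in N2B27, a serum-free medium. The LBPXRS cells grew on fibronectin with LIF, a cytokine that sustains self-renewal, with BMP4, and with PD0325901 (a MEK inhibitor), Xav939 (a tankyrase inhibitor that dampens WNT signalling), SB431542 (an inhibitor of the NODAL and activin receptors) and Resorcyclic lactone, for which the labels give no target. The LB cells grew on gelatin with LIF and BMP4 and serve below only for the same contrast within their own library. LIF and BMP4 are common to both conditions, and medium and substrate differ together between them.

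Mitochondria keep a small circular genome that codes for core subunits of the respiratory chain, while the remaining subunits of that chain are coded in the nucleus and imported. Mitochondrial transcripts are polyadenylated, and they form a steady part of the RNA captured from an intact cell. Some long noncoding RNAs, Malat1 foremost, stay in the nucleus, so their share of the captured RNA describes how much nuclear RNA a barcode holds. Ribosomal protein and glycolytic mRNAs lie in the cytoplasm.

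The values used by the selection are given first, as a description. The mitochondrial share of the selected cells ranged from 0% to 0.498%, with a median of 0.0777%, against a median of 2.6% in the comparison cells. In all, 24 of the 168 cells held no mitochondrial UMI, and 0 of 2537 comparison cells did. Deep cells were among them: 19 of the selected cells had 15300 to 31397 UMIs and a mitochondrial share below 0.05%, with only 0 to 11 mitochondrial UMIs each. At the edge of the rule, the 19 cells at 0.4 to 0.5% had a median of 19414 UMIs and the 17 cells at 0.5 to 0.6% a median of 18979 UMIs. The selected cells made up 6.21% of the 2705 LBPXRS barcodes at or below 10% (interval 5.33 to 7.19%). In LB the same rule took 32 of 1783, or 1.79% (1.23 to 2.52%), a difference between 2 single libraries that has no replicate check.

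The make-up of the remaining mitochondrial UMIs, pooled over the selected cells, differed from that in the comparison cells. The selected cells held 3879 mitochondrial UMIs together, and the rule used their sum but not how they divide among genes. mt-Co1, a core subunit of cytochrome c oxidase, gave 14.2% of them (13.1 to 15.3%) against 20.5% in the comparison cells. mt-Co3, another subunit of that enzyme, gave 19.2% (18 to 20.5%) against 20.8%. Subunits of complex I, the NADH dehydrogenase, took more: mt-Nd2 gave 6.42% (5.67 to 7.24%) against 3.26%, and mt-Nd5 gave 2.94% (2.43 to 3.52%) against 0.726%. The mt-Nd5 UMIs were spread over 43 cells, and mt-Cytb, of complex III, gave 10.4% against 7.41%. The 40 cells at 0.25 to 0.5% held 2469 of the 3879 UMIs and 88 of the 114 from mt-Nd5. In the 89 cells under 0.1%, mt-Nd2 gave 3.64% (1.89 to 6.27%) and mt-Nd5 0.909% (0.188 to 2.63%), intervals that include the comparison values, and mt-Co1 gave 12.4% (9.07 to 16.5%).

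This shift in make-up was present on both sides of 0.5%. The share of mt-Nd5 was 0.721% (0.656 to 0.791%) in cells with a mitochondrial share of 5 to 10%, 0.509% at 3 to 5%, 0.698% at 2 to 3%, 1.18% at 1 to 2%, 2.28% at 0.5 to 1% and 3.56% at 0.25 to 0.5%. Below that it was 2.13% at 0.1 to 0.25%, and under 0.1% it rests on 3 of 330 UMIs. In LB mt-Nd5 was 0.402% at 5 to 10%, 0.329% at 3 to 5%, 0.349% at 2 to 3%, 0.372% at 1 to 2% and 0.494% (0.333 to 0.704%) at 0.5 to 1%. The LB cells below 0.5% had 0 of 220 mitochondrial UMIs from it, with an exact interval that reaches up to 1.66%. mt-Co1 in LB was at 17.4% at 3 to 5%, 25.4% at 1 to 2%, 37.1% at 0.5 to 1% and 14.5% (10.2 to 19.9%) below 0.5%, and mt-Nd2 at 2.31%, 2.02%, 1.30% and 0.455% in the same bins, the last on 1 UMI. Median depth was 22298 UMIs at 1 to 2%, 20850 at 0.5 to 1% and 18820 at 0.25 to 0.5%, and its part in the shift was not tested.

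**Figure D1:**
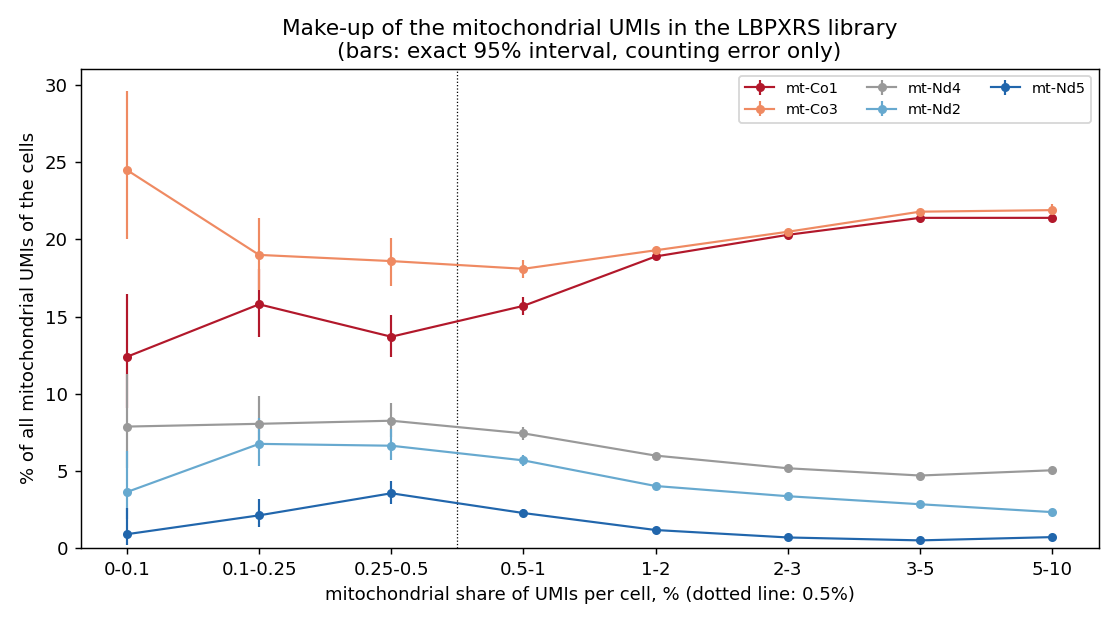
Share of 5 genes among all mitochondrial UMIs (vertical axis, %) of LBPXRS cells binned by their mitochondrial share of UMIs (horizontal axis, %); points are pooled values, bars exact 95% intervals for counting error, and the dotted line marks the rule at 0.5%. From 3-5% down to 0.25-0.5% mt-Nd5 goes from 0.509% to 3.56% and mt-Co1 from 21.4% to 13.7%, while in the 2 bins furthest left mt-Nd5 is at 2.13% and 0.909% and mt-Co1 at 15.8% and 12.4%.

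The selected cells were of 2 depth ranges. Their UMIs per cell ran from 2015 to 35060 with a median of 12934, and those of the comparison cells had a median of 19244. Under 5000 UMIs lay 55 of the 168 selected cells but only 29 of the 2537 comparison cells. The other 113 selected cells had a median of 18520 UMIs and 3733 genes, close to the 19347 UMIs and 3829.5 genes of the comparison cells in that range. In the cells with 0 to 0.1% mitochondrial UMIs, 44.9% lay under 5000 UMIs, against 20% at 0.25 to 0.5%, 6.52% at 0.5 to 1% and 0.195% at 2 to 3%. The ranges at 5000 UMIs are a cut through a continuous measure and not cell types.

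Nuclear RNA separated the 2 depth ranges. It was measured as the share of nuclear-encoded UMIs from a list of nuclear-retained noncoding RNAs, nearly all of them Malat1 (ENSMUSG00000092341, a long noncoding RNA gene on mm10 chromosome 19, minus strand, 5795690 to 5802672). Over all 168 cells the share ran from 0% to 13.1% with a median of 0.565%, and the comparison cells had a median of 0.899%, with their central 95% between 0.24% and 2.33%. Below that central range lay 66 selected cells (39.3%) against 64 comparison cells (2.52%), and above it lay 11. Among the 55 shallow cells the median was 0.0339%, with 46 cells below the range, 5 within and 4 above. Among the 113 deeper cells the median was 0.884%, with 20 below, 86 within and 7 above. So most of the deeper cells combined very little mitochondrial RNA with an ordinary nuclear RNA share, and most of the shallow ones held little of either.

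Counted in molecules the contrast is plainer. Of the 55 shallow cells, 33 (60%) held 0 or 1 UMI from the whole nuclear RNA list, 21 of them none at all. Of the 113 deeper cells, 13 (11.5%) held 0 or 1. Among comparison cells of at least 5000 UMIs this was true of 9 of 2508 (0.359%). Shallow depth alone went with fewer nuclear RNAs in the comparison cells too: 9 of the 29 under 5000 UMIs (31%) held 0 or 1, and their median share was 0.243%. The difference between shallow selected and shallow comparison cells thus rests on 29 barcodes on one side. How far low depth, and not the low mitochondrial share, goes with the loss cannot be told apart at this number.

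**Figure D2:**
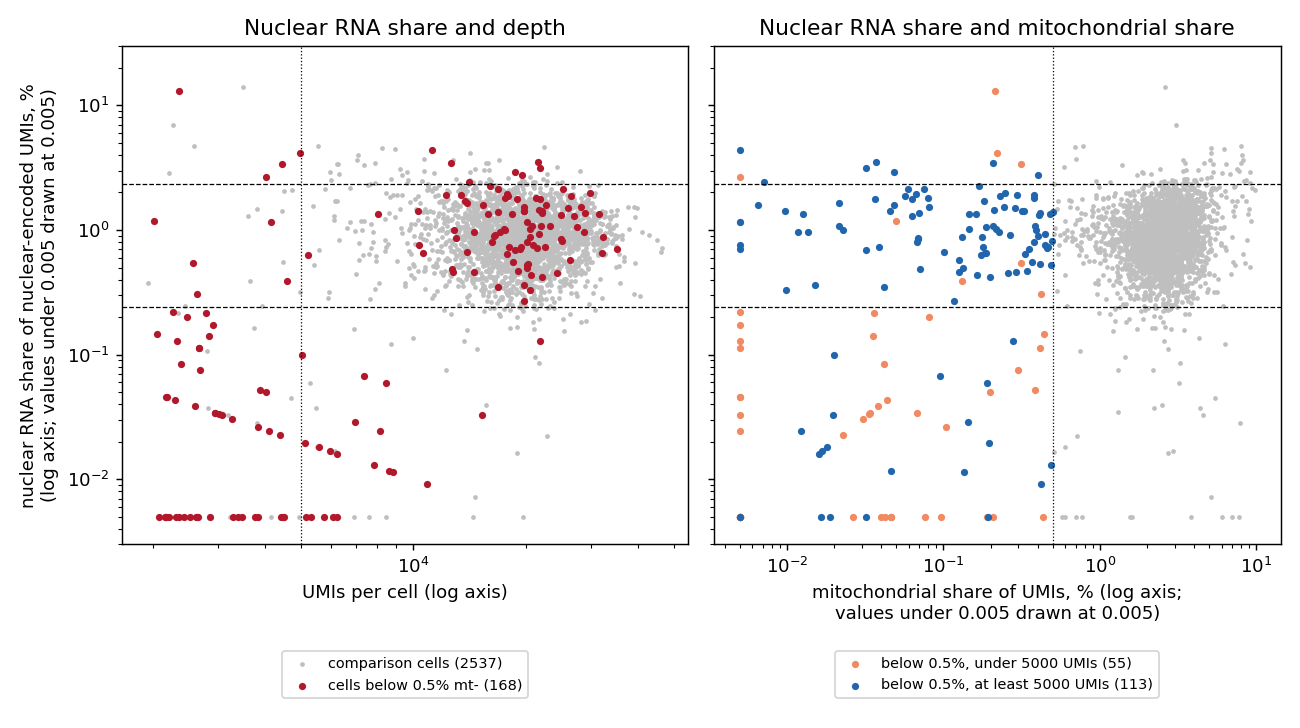
Nuclear RNA share of the nuclear-encoded UMIs of each LBPXRS cell (vertical log axis, %) against its UMIs (left, log axis) and against its mitochondrial share (right, log axis, %); dashed lines bound the central 95% of the comparison cells, dotted lines mark 5000 UMIs and 0.5%, and values under 0.005 are drawn at 0.005. A column of deep low-mitochondrial cells lies among the grey comparison cells, and a second set of 46 shallow and 20 deeper cells lies below the lower dashed line.

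The nuclear RNA share did not follow the mitochondrial share in a straight way. Its median was 0.141% in cells below 0.1% mitochondrial UMIs, 0.667% at 0.1 to 0.25% and 0.741% at 0.25 to 0.5%, against 0.91% at 0.5 to 1%, 0.889% at 2 to 3% and 1.41% at 5 to 10%. Among cells of at least 5000 UMIs alone the same bins had 0.956%, 0.804% and 0.856% below the rule, against 0.928%, 0.889% and 1.5% above it. On either side of the rule the medians were 0.725% (0.4 to 0.5%) and 0.913% (0.5 to 0.6%).

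For the comparison gene by gene, mitochondrial UMIs were left out and every cell was thinned at random to 2000 UMIs, so that each cell had the same weight and depth. Values are counts scaled to a total of 1000000 UMIs (CPM), and a ratio is log2 of CPM in the selected cells over CPM in the comparison cells, with 1 CPM added to each. The nuclear RNA list had a ratio of -0.23 (-0.28 to -0.17) over all selected cells. It was -0.88 (-1.0 to -0.76) in the shallow cells and 0.01 (-0.06 to 0.07) in the deeper ones. The whole-group value is thus carried by the shallow cells: it was 0.00 with at least 1500 genes per cell and 0.14 with all UMIs summed. A single shallow cell with 13.1% nuclear RNA and 2348 UMIs also weighs on it, and without that cell the shallow value was -1.68.

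Of the 2387 genes that reached 50 CPM as the mean of both groups, 56 (2.35%) were at least 2-fold higher in the selected cells and 23 (0.964%) at least 2-fold lower. The median gene had a ratio of 0.08. These genes were counted by size alone. The minimum on the mean of both groups removes genes that are low in the selected cells, and with the minimum set on the comparison cells alone the counts were 23 higher (0.997%) and 61 lower (2.64%) of 2308. The highest genes at a mean CPM of at least 100 included Cldn4, Eif4a3, Rrm2, Csrp1, Atxn10, Eif4a1, Ccnb1, Hat1 and Vbp1, with ratios from 1.54 down to 1.25. Cldn4, Eif4a3, Csrp1 and Vbp1 had under 100 CPM in comparison cells and reached that minimum only through the selected cells.

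Cldn4, a tight junction claudin, stood at 202 CPM against 69.0 CPM, a ratio of 1.54 (1.16 to 1.93), but 1 cell held 19.1% of its UMIs and it was seen in 20.2% of cells against 11.6%. Eif4a1, an RNA helicase of translation initiation, stood at 1455 CPM against 559 CPM, a ratio of 1.38 (1.24 to 1.52). Rrm2, a subunit of the ribonucleotide reductase that makes DNA precursors, stood at 312 CPM against 113 CPM, and Ccnb1, the mitotic cyclin B1, at 259 CPM against 103 CPM.

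The 10 lowest genes had ratios from -1.10 to -0.87: Ndufa1, Gnai2, Enah, Cenpf, Tmem234, Sfrp1, Ssbp4, Taf10, Ppp1r14b and Ube2m. Ndufa1, a nuclear-encoded subunit of complex I, stood at 65.5 CPM against 141 CPM, a ratio of -1.10 (-1.79 to -0.50) that rests on 22 UMIs. Gnai2, an inhibitory G protein subunit, stood at 155 CPM against 310 CPM and was seen in 22% of cells against 45.7%. Cenpf, a kinetochore protein of late cell cycle, had a ratio of -0.94 (-1.56 to -0.39), opposite in sign to Ccnb1. Over all 168 cells, the genes named here from both ends of the ranking kept their sign under each alternative setting in which they were recomputed, with the smallest ratio in size 0.26 for Ccnb1 and -0.24 for Tmem234.

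Split by depth, the 2 ranges looked unlike each other. To limit counting noise the split used genes that reached a mean of 200 CPM, a minimum chosen after the data were seen. In the 55 shallow cells 90 of 672 genes (13.4%) were at least 2-fold higher and 14 (2.08%) at least 2-fold lower. The minimum is on the mean of both groups, so 48 of the 90 reached it only through the shallow cells, while 9 genes with 200 CPM in comparison cells and at least 2-fold lower in the shallow ones missed it, among them Ppp1r14b at -2.84 and Taf10 at -2.54. With the minimum on the comparison cells alone, 42 of 604 genes (6.95%) were higher and 23 (3.81%) lower. In the 113 deeper cells 1 of 583 genes (0.172%) was at least 2-fold higher and 0 (0%) lower; with the minimum back at 50 CPM these counts were 38 (1.65%) and 30 (1.31%) of 2297, and with another random thinning 2 and 3. Of the 604 genes with 200 CPM in comparison cells, 0 were 2-fold apart in either direction in the deeper cells pooled.

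**Figure D3:**
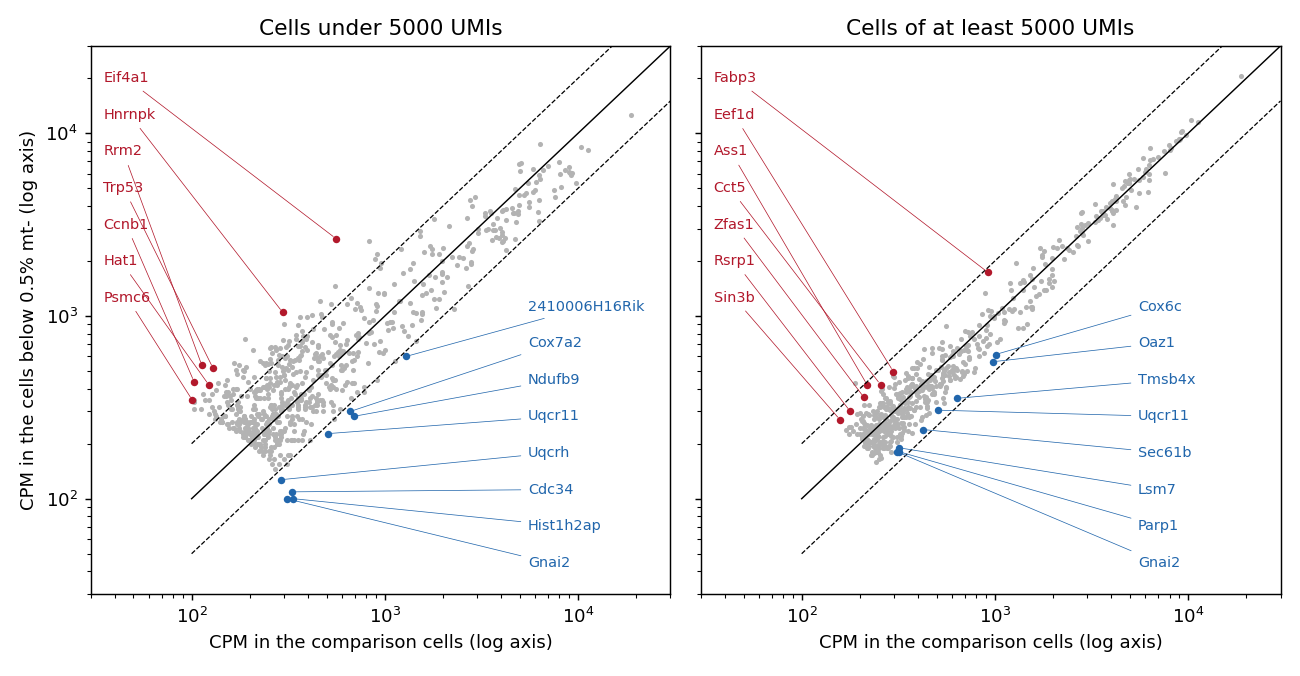
CPM of each gene that reached a mean of 200 CPM, in the low-mitochondrial cells (vertical log axis) against the comparison cells (horizontal log axis), for the 55 cells under 5000 UMIs (left) and the 113 deeper cells (right); the solid line marks equality, dashed lines 2-fold, and coloured points the named genes among the 8 highest and 8 lowest. Points scatter widely on the left, where 90 genes lie above the upper dashed line, 48 of them with under 200 CPM in comparison cells, and less on the right, where 1 gene does; genes lowered below a mean of 200 CPM are not drawn.

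In the shallow cells the highest ratios belonged to Rrm2 (536 CPM against 113 CPM) and Eif4a1 (2645 CPM against 559 CPM), both at 2.24. Ccnb1 followed at 2.07, Trp53, the gene of the p53 tumour suppressor, at 2.00, and Hnrnpk, an RNA-binding protein, at 1.82. Psmc6, a proteasome ATPase, stood at 1.77 and Hat1, a histone acetyltransferase, at 1.75. Of these, Rrm2, Ccnb1, Trp53, Psmc6 and Hat1 had under 200 CPM in comparison cells and entered the ranking only through the shallow cells, where they are high. The lowest were Hist1h2ap at -1.74, Gnai2 at -1.62, Cdc34 at -1.59, and 4 subunits of the respiratory chain: Ndufb9 at -1.28, Uqcrh at -1.18, Uqcr11 at -1.15 and Cox7a2 at -1.14. Hist1h2ap belongs to a family of near-identical histone genes, so its own count is uncertain.

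The named genes among the 8 highest all had smaller ratios when the shallow selected cells were set against the 28 comparison cells under 5000 UMIs that could be thinned. Eif4a1 then had a ratio of 0.54 (0.21 to 0.88), Rrm2 of 0.74 (-0.04 to 1.59) and Ccnb1 of 1.60 (0.52 to 2.90). Trp53 was at 1.39 (0.45 to 2.48) and Hat1 at 1.37 (0.33 to 2.60). Of the low genes, Ndufb9 was at -1.63 (-2.33 to -0.96) and Cox7a2 at -1.25 (-1.96 to -0.55). Other low genes had intervals that include 0. Cdc34 was at -0.84 (-2.16 to 0.47), Hist1h2ap at -0.68 (-2.09 to 0.76) and Uqcr11 at -0.65 (-1.56 to 0.27). Uqcrh was at -0.49 (-1.76 to 0.84) and Gnai2 at 0.48 (-1.27 to 2.59). For the nuclear RNA list the ratio was -1.35 (-1.51 to -1.19). In this comparison 5 of the 8 highest stayed at least 2-fold higher, among them Hnrnpk at 1.01 (0.42 to 1.65) and Psmc6 at 1.10 (0.03 to 2.34). Of the 8 lowest genes Ndufb9, Cox7a2 and 2410006H16Rik stayed at least 2-fold lower. Of all 2556 genes at a mean of at least 50 CPM, 14.8% were higher and 8.53% lower. Both sets of 8 had been picked as the highest and lowest of these same shallow cells against all comparison cells, so staying apart is partly built in. The nuclear RNA value rests on single barcodes: without the comparison cell of the highest share it was -0.71 (-0.89 to -0.54), without the selected cell of the highest share -2.15, and without both -1.51 (-1.71 to -1.30).

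In the deeper cells, 38 of 2297 genes at a mean of at least 50 CPM were at least 2-fold higher and 30 lower. At a mean of at least 200 CPM, the minimum for the genes ranked here, all but 1 of 583 differed by less than 2-fold. Ass1, an enzyme of arginine synthesis, stood at 420 CPM against 218 CPM, a ratio of 0.94 (0.63 to 1.25). Fabp3, a fatty acid binding protein, stood at 1730 CPM against 920 CPM, or 0.91 (0.76 to 1.06). The lowest were Tmsb4x, an actin-binding thymosin, at -0.84, Sec61b of the protein translocon at -0.82, Oaz1, the inhibitor of ornithine decarboxylase, at -0.80, and Parp1 at -0.80. Cox6c, of cytochrome c oxidase, stood at 615 CPM against 1007 CPM, a ratio of -0.71 (-0.97 to -0.47).

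Nuclear-encoded subunits of the respiratory chain and ATP synthase were slightly lower as a group. Of 77 such genes with enough counts, 60 lay below 0 in the deeper cells, where 1146 of 2297 genes of all kinds (49.9%) did. Their median ratio there was -0.29 beside 0.00 for all genes, and the ratio of their summed CPM was -0.27 (-0.31 to -0.24), with a range of -0.41 to -0.23 under the alternatives. Of the 77, 0 were 2-fold lower and 1 was 2-fold higher, near the 1.31% and 1.65% of all genes. In the shallow cells the summed ratio was -0.17 (-0.21 to -0.12), and -0.39 (-0.46 to -0.31) against shallow comparison cells. There 8 of the 77 genes were at least 2-fold higher and 8 lower against all comparison cells; of all 2518 genes at that minimum, 474 (18.8%) were higher and 128 (5.08%) lower.

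The complexes of the chain differed among themselves. Complex IV, which also holds the mt-Co subunits, was lowest: its 11 nuclear genes had a summed ratio of -0.39 (-0.45 to -0.32) in the deeper cells and -0.56 (-0.66 to -0.46) in the shallow ones, with 10 of 11 and 11 of 11 genes below 0. Complex I had -0.27 (-0.34 to -0.21) and -0.26 (-0.35 to -0.17). Complex III had -0.23 (-0.34 to -0.12) in the deeper cells, and 0.12 (-0.02 to 0.26) in the shallow ones. Complex II, which holds no mitochondrially encoded subunit, had 0.03 (-0.24 to 0.28) and 0.63 (0.33 to 0.93) from 4 genes. ATP synthase had -0.18 (-0.24 to -0.11) and 0.12 (0.03 to 0.20). In LB the list as a whole was at 0.00 (-0.06 to 0.07) and complex IV at -0.16 (-0.29 to -0.04), where the median gene of all was at 0.24; 41 of 77 genes of the list lay below 0 there, beside 39.5% of all genes.

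**Figure D4:**
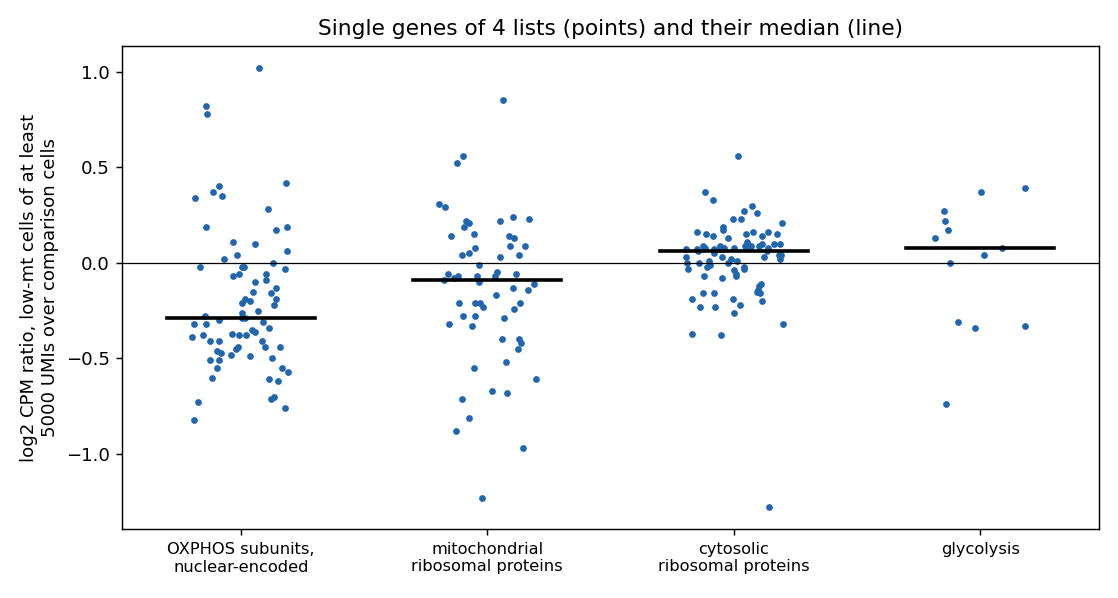
log2 ratio of each gene that reached a mean of 50 CPM (points, spread sideways for visibility) in low-mitochondrial cells of at least 5000 UMIs over comparison cells, for 4 lists; black lines are medians. The respiratory chain list has its median at -0.29 with 60 of 77 genes below 0, and cytosolic ribosomal proteins lie around 0.06.

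Among other mitochondrial genes coded in the nucleus, mitochondrial ribosomal proteins, which translate the mitochondrial genome's messages, had a summed ratio of -0.15 (-0.22 to -0.09) in the deeper cells and 0.06 (-0.02 to 0.15) in the shallow ones. Against shallow comparison cells they were at 0.31 (0.16 to 0.47), with 15 of 63 at least 2-fold higher and 1 lower, where 379 of all 2556 genes (14.8%) were higher and 218 (8.53%) lower. Proteins of mitochondrial import had -0.10 (-0.17 to -0.03) and -0.01 (-0.11 to 0.08), and 0.11 (-0.06 to 0.28) against shallow comparison cells. Factors that copy and transcribe the mitochondrial genome were mostly under the minimum, with 4 of 27 genes measured in the deeper cells and none of them 2-fold apart. Their summed ratio was 0.06 (-0.16 to 0.27), and 0.45 (0.17 to 0.71) in the shallow cells, where 5 genes were measured.

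Glycolysis, S phase, G2/M and cytoskeletal genes were higher in the shallow cells. Glycolysis genes had a summed ratio of 0.86 (0.78 to 0.94), with 7 of 14 at least 2-fold higher, where 18.8% of all genes were, and 1 lower; the median gene of all was at 0.31. Among them Pkm, which makes pyruvate, stood at 1200 CPM against 464 CPM, and Eno1, enolase, at 1009 CPM against 422 CPM. In the deeper cells the same list was at 0.12 (0.05 to 0.20), and against shallow comparison cells at 0.47 (0.31 to 0.62). S phase genes had 0.97 (0.83 to 1.12), with 10 of 20 at least 2-fold higher beside 18.8% of all genes, then 0.11 (-0.03 to 0.25) in the deeper cells and 0.28 (0.02 to 0.55) against shallow comparison cells. The minimum is on the mean of both groups, and 17 S phase genes reached it in the deeper cells against 20 in the shallow ones. G2/M genes had 0.62 (0.47 to 0.76) in the shallow cells and 0.03 (-0.10 to 0.15) in the deeper ones, and 0.40 (0.13 to 0.68) against shallow comparison cells. Cytoskeletal genes had 0.62 (0.54 to 0.69), 0.01 (-0.06 to 0.07) and 0.37 (0.23 to 0.51) in the same order. At least 2-fold higher against shallow comparison cells were 2 of 14 glycolysis genes and 5 of 21 S phase genes. For G2/M genes this was 5 of 16 and for cytoskeletal genes 0 of 14, beside 14.8% of all genes. The list medians there were 0.50, 0.11, 0.81 and 0.29 in that order, beside 0.09 for all genes. The glycolysis and cytoskeletal values of the deeper cells are averages over sets of opposite sign described further on. Tubb5, a beta tubulin, stood at 2173 CPM in the shallow cells against 915 CPM.

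Cytosolic ribosomal protein genes were lower there. They had a summed ratio of -0.33 (-0.34 to -0.31) in the shallow cells, with 73 of 83 genes below 0 where 34.9% of all genes were, and 0.04 (0.03 to 0.05) in the deeper cells. Against shallow comparison cells the ratio was -0.13 (-0.16 to -0.11).

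For the stress lists the values of the deeper and the shallow cells are given side by side, with no test between them. The heat shock list had 0.28 (0.21 to 0.34) in the deeper cells and 0.65 (0.56 to 0.73) in the shallow ones, led by Hspa8, the constitutive HSP70, at 1341 CPM and 2045 CPM against 890 CPM. The list of the integrated stress response had 0.07 (-0.07 to 0.21) and 0.79 (0.64 to 0.94); its member Asns, asparagine synthetase, stood at 900 CPM in the shallow cells against 301 CPM. Against shallow comparison cells the heat shock list was at 0.32 (0.17 to 0.48) and the integrated stress response list at 0.42 (0.13 to 0.70). ER chaperones were at -0.32 (-0.48 to -0.16) and -0.18 (-0.40 to 0.04). The apoptosis list had -0.21 (-0.37 to -0.04) and 0.27 (0.07 to 0.47), where the median gene of all was at 0.00 and 0.31. Against shallow comparison cells it was at 0.18 (-0.18 to 0.54). The dissociation stress list, early response genes that handling of cells can induce, had 0.46 (0.14 to 0.76) on 95 UMIs and -0.03 (-0.57 to 0.47) on 33 UMIs, with 2 of its 13 genes at the minimum. Targets of p53 had 0.14 (-0.01 to 0.28) and 0.11 (-0.10 to 0.31).

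**Figure D5:**
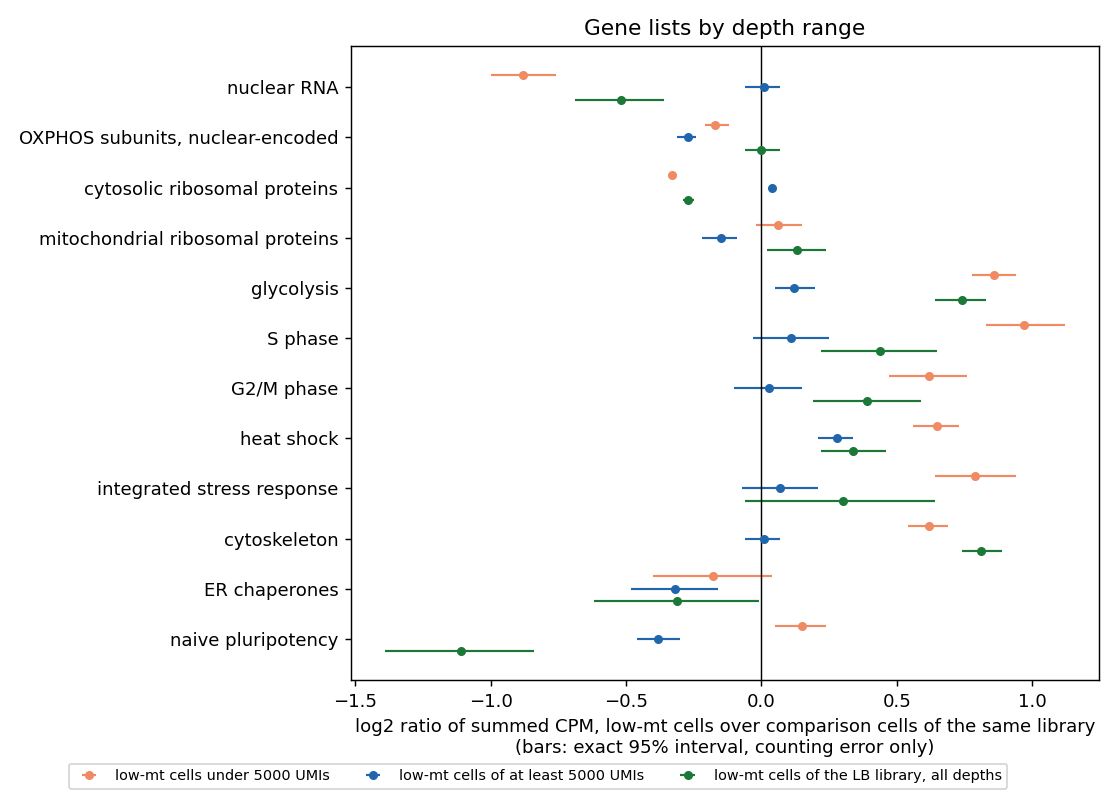
log2 ratio of the summed CPM of 12 gene lists (horizontal axis) in low-mitochondrial LBPXRS cells under 5000 UMIs, in those of at least 5000 UMIs, and in low-mitochondrial LB cells, each over the comparison cells of its own library; bars are exact 95% intervals for counting error. The shallow cells are lowest for nuclear RNA (-0.88) and highest for S phase (0.97) and glycolysis (0.86), and the deeper cells stay between -0.38 and 0.28.

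The selected cells carried the markers of the labelled embryonic stem cells. Pou5f1, a core pluripotency factor, stood at 1089 CPM against 987 CPM, with 1318 CPM in the shallow cells and 978 CPM in the deeper ones. Zfp42, a naive marker, stood at 560 CPM against 531 CPM, with 764 CPM and 460 CPM in the same ranges. The core pluripotency list had a summed ratio of 0.35 (0.17 to 0.53) in the shallow cells and -0.14 (-0.29 to 0.01) in the deeper ones, where all 5 of its measured genes lay below 0. In the deeper cells the naive pluripotency list had a summed ratio of -0.38 (-0.46 to -0.30), with 3 genes above 0 and 9 below. Most of its UMIs came from Dppa5a, at 3925 CPM against 5343 CPM. Sox2 stood at 159 CPM against 243 CPM there. In the shallow cells the naive list had a summed ratio of 0.15 (0.05 to 0.24), and 0.06 (-0.11 to 0.22) against shallow comparison cells. There too Dppa5a gave most of the UMIs of the list. The list's median gene was at 0.52 beside 0.31 for all genes. Of its 15 measured genes 6 were at least 2-fold higher, where 18.8% of all genes were. Against shallow comparison cells the median was 0.78 beside 0.09, and 6 of 14 were higher, beside 14.8%. The minimum is on the mean of both groups, and 12 genes of the list reached it in the deeper cells. Against all comparison cells 5 of the 15 genes lay below 0, where 34.9% of all genes did. Dppa5a, among the 5, stood at 4727 CPM against 5343 CPM, and Klf2, among the others, at 982 CPM against 363 CPM.

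Markers of other cell types were scarce. Erythroid genes, which would mark red cells that lack both a nucleus and mitochondria, had no UMI in the selected cells after thinning. Fibroblast, endothelial, neural, mesoderm and primitive endoderm lists held no gene at a mean CPM of 50. Of 4 macrophage markers, Ptprc, Csf1r and Lyz2 had no UMI, and Cd68, a lysosomal protein, stood at 86.3 CPM against 50.3 CPM. The trophoblast list had a summed ratio of 1.47, which fell to 0.62 without a single deeper cell that held 84% of the Krt8 UMIs and 69.2% of the Krt18 UMIs, 2 keratins of simple epithelia. In the shallow cells, which do not hold that cell, it was at 1.02 (0.19 to 1.73) on 16 UMIs, and at 3.03 (0.34 to 8.42) against shallow comparison cells, which had 1 UMI. Scrublet, which marks likely doublets, marked 1 of the 168 cells and 10 in the library. Barcode sequences shared with LB numbered 10 in the library, with 1 among the selected cells.

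In gene expression without mitochondrial genes the selected cells lay partly together. Among the 15 nearest cells of a selected cell, 32% were selected cells too, where these made up 6.21% of all. This was 59.6% for the shallow cells, 18.5% for the deeper ones and 2.85% for comparison cells. Comparison cells under 5000 UMIs also had more selected neighbours, at 21%, although all cells were thinned to the same depth first.

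The deeper cells were themselves mixed in nuclear RNA. The 58 of them below the comparison median had a Malat1 level of 3828 CPM and the 55 at or above it 16145 CPM, against 9757 CPM in the comparison cells. That difference follows from the split, and 24 of the 113 lay within 20% of the cut. The lower set was also shallower, with a median of 16616 UMIs and a lower quartile of 8198.5 against 19739 and 16278, and the part of depth was not tested. Some genes had like ratios in both sets, such as Csrp1 with 1.47 and 1.47 and Ass1 with 0.92 and 0.97, and others did not. Eif4a1 had a ratio of 1.18 (0.93 to 1.42) in the lower set and -0.27 (-0.70 to 0.13) in the upper one, Hat1 of 1.51 (1.03 to 1.98) and 0.15 (-0.70 to 0.88), and Hnrnpk of 1.11 (0.75 to 1.45) and 0.11 (-0.42 to 0.59). Tmsb4x had -0.39 (-0.80 to -0.01) and -1.54 (-2.18 to -0.96), and Fabp3 0.48 (0.24 to 0.72) and 1.26 (1.06 to 1.44).

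Some gene lists took opposite signs in the 2 sets. Glycolysis genes were at 0.38 (0.28 to 0.47) in the cells low in nuclear RNA and at -0.20 (-0.32 to -0.09) in the others, and cytoskeletal genes at 0.28 (0.19 to 0.36) and -0.35 (-0.45 to -0.24). The small values given above for these 2 lists in the 113 cells together thus average opposite signs. Nuclear-encoded respiratory chain genes were lower in both sets, at -0.21 (-0.25 to -0.16) and -0.35 (-0.40 to -0.30), as were naive pluripotency genes, at -0.22 (-0.33 to -0.12) and -0.57 (-0.69 to -0.45). The ratios of both sets share their comparison cells, and the difference between the sets was not tested. Neat1, the RNA scaffold of nuclear paraspeckles, stood at 137 CPM in the deeper cells against 58.8 CPM, a ratio of 1.21 (0.64 to 1.76), on a mean below the minimum of 200 CPM used for that range. In the set low in nuclear RNA it was at -0.18 (-1.64 to 0.96) on 6 UMIs. In the other set, split off for its high nuclear RNA, it was at 1.93 (1.30 to 2.54) on 25 UMIs.

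The same contrast in LB gave 32 cells, of which 30 could be thinned. Their median depth was 4691 UMIs, and 26 of 32 (81.2%) lay below the central 95% of nuclear RNA shares in LB comparison cells. Their median share was 0.0327% against 0.59%. The 15 LB cells of at least 5000 UMIs had a median of 0.0135% and a highest value of 0.202%, at a median depth of 7401 UMIs. In LBPXRS the 113 deeper cells had 0.884% at 18520 UMIs, so depths were unlike, and the difference between the libraries was not tested. The single LB cell above its range had 3119 UMIs and 12.3% nuclear RNA. That cell carried the summed nuclear RNA ratio of LB, which was -0.52 with it and -3.26 without it.

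Of the genes named above, Eif4a1 had a ratio of 1.45 (1.24 to 1.65) in LB and Rrm2 of 1.43 (0.73 to 2.07). Cldn4, with 1 UMI there, stood at -0.42 (-5.76 to 2.08), Gnai2, with 3 UMIs, at -2.36 (-4.66 to -0.83), and Ndufa1 at 0.04 (-1.18 to 1.03). Glycolysis genes were at 0.74 (0.64 to 0.83), cytoskeletal genes at 0.81 (0.74 to 0.89) and cytosolic ribosomal proteins at -0.27 (-0.29 to -0.25). The naive list was at -1.11 (-1.39 to -0.84), beside -0.19 (-0.25 to -0.12) in LBPXRS. LB comparison cells include cells of several states, which was not adjusted for.

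Below the gene minimum, 226 further LBPXRS barcodes had a mitochondrial share under 0.5%. They had a median of 871.5 UMIs, and 129 of them held no UMI of the nuclear RNA list. Pooled, that list made up 0.269% of their nuclear-encoded UMIs, against 2.8% in the 60 barcodes under the minimum with 0.5 to 10%. Those 60 had a median of 0.255% per cell, with 22 of them at 0, so few barcodes carry their pooled value. The 226 had a median share of 0% per cell and a mean of 0.299%, beside a median of 0.0339% and a mean of 0.526% in the shallow selected cells.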

How the data were processed

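The deposited matrices hold UMI counts per gene and barcode, made by the authors with Cell Ranger 4.0.0 on mm10 per the submitters' processing notes; the annotation, intron counting and cell calling settings are not given in the sources used here. Per the labels' protocols, libraries used 10x 3′ version 2 chemistry. Gene positions are from GENCODE M21 (GRCm38).

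Mitochondrial genes were left out, cells thinned to 2000 UMIs (seed 1; 1 comparison cell was too shallow), summed and scaled to CPM. Ratios add 1 CPM. Poisson, Clopper-Pearson and conditional binomial intervals are exact. Genes at least 2-fold apart at a mean CPM of at least 50 were counted. The named genes were the 10 highest and 10 lowest at 100 CPM, and 8 each way at 200 CPM in the depth ranges. Extra genes were chosen after their values were seen. A gene that the naming rule picks is not reported here.

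The members and gene lists were chosen with earlier results of these data known. In simulated counts for all 168 cells the rule called 100 of 100 genes raised 3-fold, but 59 of 100 lowered 3-fold, since lowered genes drop under the minimum. Tools were Python 3.11.15, scanpy 1.11.5, scipy 1.17.1 and, for TMM scaling only, edgeR 4.0.16.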

Additional observations from a re-analysis of the deposited data

How the results depend on the processing

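With 1 library per condition there is no check between cultures, and the shallow cells hold few UMIs per gene. No paired analysis was possible because there is 1 library per condition. Counts of genes at least 2-fold apart depended on the settings. In all cells together, 56 higher and 23 lower became 24 and 9 when thinned to 5000 UMIs, 37 and 12 as a mean over unthinned cells, 23 and 2 with all UMIs summed, 100 and 49 for cells below 0.25% mitochondrial UMIs, and 37 and 51 with TMM scaling. They were 193 and 145 at a mean CPM of 20 and 1427 and 2553 with no minimum; a pseudocount of 10 gave 10 lower, and a minimum in comparison cells alone 23 higher and 61 lower. In the shallow cells, 90 higher and 14 lower became 138 and 42 with at least 1500 genes, 474 and 128 at 50 CPM and 42 and 23 with the minimum in comparison cells alone, and the lower count was 8 as a mean over cells, 7 with all UMIs summed, 8 with mitochondrial UMIs kept and 28 with TMM. In the deeper cells, 1 higher and 0 lower became 38 and 30 at 50 CPM and 2 and 3 with another seed; the higher count was 0 thinned to 5000 UMIs, with all UMIs summed or with the minimum in comparison cells alone, 5 below 0.25%, and 3 with mitochondrial UMIs kept.

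The nuclear RNA ratio of -0.23 was 0.03 thinned to 5000 UMIs, 0.14 with all UMIs summed, 0.00 with at least 1500 genes, -0.37 with TMM, 0.01 without cells under 5000 UMIs and -0.36 without the cell of the highest share. The neural list, on a handful of UMIs, went from -1.39 to 0.11 in the deeper cells when thinned to 5000 UMIs. Of 2416 other values, 2093 stayed within their counting interval, 322 moved out of it and 1 reversed. The settings differed in this. TMM scaling moved 68 of 188 values, at least 1500 genes 52 of 184 and all UMIs summed 49 of 188. Thinning to 5000 UMIs moved 42 of 142. Comparison cells of 1 to 10%, leaving out doublets and a pseudocount of 10 moved none. Leaving out single cells, or cells under 5000 UMIs, the minimum in comparison cells alone and the 50 CPM in depth ranges were added after seeing the data. The causes were not tested, except that leaving out shallow cells is what the 5000 UMI and 1500 gene settings do.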
